A study of Mus musculus with 12 samples.

Results

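The paired immunoglobulin-like receptors (Pira and Pirb) and their leukocyte immunoglobulin-like relatives (Lilr) were followed over 12 spleen arrays of 2 BALB/c colonies. The members were chosen by name: a probe set belonged to the family if any gene symbol in the platform annotation began with Pira, Pirb or Lilr. The rule found 5 of the 45037 probe sets tested, and they named 6 of the 19324 genes that the annotation names on these arrays. The RefSeq gene table holds 7 genes with such a symbol. The one without a probe set here is Lilra5. The family itself was selected on the known difference of a Pira2 probe set between the colonies. The differences between colonies below are therefore a description, and no test is read from them.

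The study compared BALB/cJ and BALB/cByJ, 2 sublines of the same inbred strain, within a larger survey of how BALB/c colonies respond to proteoglycan-induced arthritis. Spleens of age-matched female mice were naïve or were taken 12 days after 1 intraperitoneal injection of cartilage proteoglycan (PG, 100 µg protein) with 2 mg of the adjuvant dimethyldioctadecyl-ammonium bromide (DDA). The labels give each array as a biological replicate, with 3 arrays for each colony and state, or 4 groups in all. No transgene or deletion is named for any of them, the naïve mice received neither PG nor DDA, and the effect of PG could not be told apart from that of its adjuvant. The methods of the colony survey give a lower PG dose than the array labels.

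PIR-A receptors are activating: they have short cytoplasmic tails and signal through the Fc receptor γ chain (Fcer1g), which carries the activation motif. PIR-B, encoded by Pirb, is the inhibitory partner, whose cytoplasmic motifs recruit the phosphatases SHP-1 (Ptpn6) and SHP-2 (Ptpn11). Both kinds are found on B cells, macrophages, dendritic cells, granulocytes and mast cells, and both bind major histocompatibility complex class I molecules. The Lilr4b and Lilrb4a genes encode the related gp49 receptors, of which gp49B, the product of Lilrb4a, is inhibitory.

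The genes lie in 2 places. The RefSeq table (assembly GRCm38.p6, the C57BL/6J reference) puts Pirb, Pira1, Pira2, Lilra6 and Lilra5 on chromosome 7 and Lilrb4a and Lilr4b on chromosome 10. On chromosome 7 the order is Rps9, Pirb, Pira1, the predicted gene Gm15448, Pira2, the predicted gene Gm14548, Lilra6 and then Lair1. The platform annotation names several of these genes together at the same probe sets, which limits what the arrays could separate. The sequences of the probes were not compared. Likeness was seen in the reference promoters of 4 of these genes. The same stretch of 120 bases before the start of 4 of them is shown here from the RefSeq promoter table, each on the minus strand of GRCm38.p6, to let the copies be compared. In the Pirb line capitals mark GAGGAA on either strand, the core of the sites bound by PU.1, a transcription factor of myeloid and B cells. In the other lines capitals mark bases that differ from Pirb.
Pirb: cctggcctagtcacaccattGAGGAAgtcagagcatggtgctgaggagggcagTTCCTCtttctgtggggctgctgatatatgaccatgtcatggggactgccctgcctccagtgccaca
Pira1: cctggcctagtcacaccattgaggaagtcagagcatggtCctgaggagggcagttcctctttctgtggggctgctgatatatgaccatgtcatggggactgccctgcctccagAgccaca
Pira2: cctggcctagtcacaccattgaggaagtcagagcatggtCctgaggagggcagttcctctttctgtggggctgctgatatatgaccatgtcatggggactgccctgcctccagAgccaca
Lilra6: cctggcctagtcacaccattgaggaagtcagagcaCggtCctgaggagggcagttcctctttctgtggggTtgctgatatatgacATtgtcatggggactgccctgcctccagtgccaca

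These stretches are chr7:3720403-3720522 for Pirb, chr7:3739938-3740057 for Pira1, chr7:3845100-3845219 for Pira2 and chr7:3915552-3915671 for Lilra6. Pira1 and Pira2 each differed from Pirb at 2 of the 120 bases, and the stretches of Pira1 and Pira2 were the same. Lilra6 differed from Pirb at 5. Over all bases before the start that could be set against each other without gaps, Pira1 matched Pirb at 245 of 250, Pira2 at 217 of 222 and Lilra6 at 212 of 220. Lilra5 matched at 77 of 224 and Lilr4b, on the other chromosome, at 75 of 249, at the best offset found for each. Lilrb4a was not matched in the promoter table. The full promoter windows of Pirb, Pira1, Pira2 and Lilra6 each held GAGGAA or its reverse complement 3 times, Lilra5 once and Lilr4b not at all, and 28.3% of the 32851 promoters in the table held it at least once. The longer GAGGAAGT, which overlaps 1 of these matches, was in the same 4 promoters and in 3.2% of all of them, counting both strands. These are descriptions of the reference sequence. The BALB/c sequence was not used here.

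Of the 5 probe sets, 1 names a single gene. Probe set 1424302_at names Pirb alone. Probe sets 1418809_at and 1452487_x_at name Pira1, Pira2 and Pirb together. Probe set 1420464_s_at names the same 3 genes with Lilra6 and the predicted genes Gm14548 and Gm10693. Probe set 1420394_s_at names Lilrb4a and Lilr4b. No probe set names Pira1 or Pira2 alone, so no value below belongs to a single Pira gene.

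All values are on the log2 scale of robust multi-array averaging, relative to the median of the 12 arrays, which was set to 0 for each probe set. A value of 1 is therefore 2-fold above the median array, and no value gives a signal level or can be set against that of another gene. In RNA from mixed spleen cells, fewer cells of a type and less RNA per cell cannot be told apart.

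The Pira and Pirb probe set 1418809_at was higher in every BALB/cByJ array than in every BALB/cJ array, in naïve and in immunized mice. Naïve BALB/cJ spleens gave -0.57, -1.07 and -1.02 at this probe set. The BALB/cByJ counterparts gave 1.37, 0.78 and 0.57. Immunized BALB/cJ spleens gave -0.90, -1.01 and -0.90. Immunized BALB/cByJ spleens gave 0.89, 0.64 and 0.65. The 6 BALB/cJ arrays thus lay between -1.07 and -0.57 and the 6 BALB/cByJ arrays between 0.57 and 1.37, a separation of all 12 arrays that 2.23% of all probe sets had. The innermost arrays mirror each other because the median of the 12 was set to 0.

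The difference between the colonies at 1418809_at, BALB/cByJ minus BALB/cJ, was 1.79 in naïve mice (SE 0.182), or 3.46-fold. In immunized mice it was 1.66 (SE 0.182), or 3.17-fold. By absolute size these were the 53rd and the 17th of the 45037 differences. The order of the 4 group means was immunized BALB/cJ at -0.94 ± 0.0658, naïve BALB/cJ at -0.88 ± 0.277, immunized BALB/cByJ at 0.73 ± 0.141 and naïve BALB/cByJ at 0.91 ± 0.419 (SD, n = 3 each). Neighbours in this order within a colony did not differ beyond their spread. The widest group was naïve BALB/cByJ, and without its replicate 1 the naïve difference was 1.56 (SE 0.143).

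**Figure D1:**
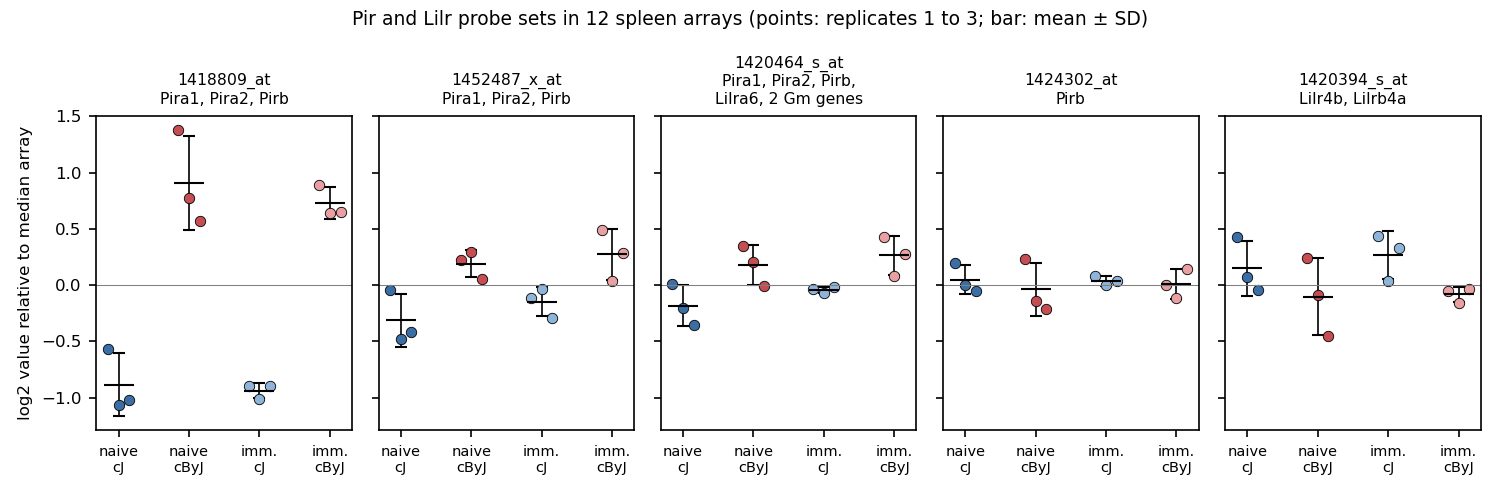
Each panel plots 1 probe set of the family. The vertical axis is the log2 value relative to the median array, points are replicates 1 to 3 of the 4 groups from left to right, and bars give the mean ± SD. At 1418809_at the BALB/cByJ arrays lie at 0.57 or above and the BALB/cJ arrays at -0.57 or below, while at 1424302_at, which names Pirb alone, the groups overlap.

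The second probe set that names these 3 genes, 1452487_x_at, was also higher in each BALB/cByJ array than in each BALB/cJ array, over a far smaller range. Naïve BALB/cJ spleens gave -0.04, -0.48 and -0.42, and naïve BALB/cByJ spleens 0.22, 0.29 and 0.06. In immunized spleens they were -0.11, -0.04 and -0.29 in BALB/cJ and 0.49, 0.04 and 0.29 in BALB/cByJ. The gap between the colonies ran only from -0.04 to 0.04. The difference was 0.50 in naïve and 0.42 in immunized mice (SE 0.136 each), or 1.42-fold and 1.34-fold.

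The probe set shared with Lilra6, 1420464_s_at, had a difference of the same sign. The naïve BALB/cJ values were 0.01, -0.20 and -0.35, and those of naïve BALB/cByJ 0.34, 0.20 and -0.01, where 1 array of each colony crossed. Immunized BALB/cJ spleens gave -0.04, -0.07 and -0.02 and immunized BALB/cByJ spleens 0.43, 0.08 and 0.28, with no overlap. The differences were 0.36 and 0.30 (SE 0.117 each).

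The probe set that names only the inhibitory receptor gene Pirb, 1424302_at, did not separate the colonies. Naïve BALB/cJ spleens gave 0.20, -0.0020 and -0.05, and naïve BALB/cByJ spleens 0.23, -0.14 and -0.21. Immunized BALB/cJ spleens gave 0.08, -0.0036 and 0.03, and immunized BALB/cByJ spleens 0.0020, -0.12 and 0.15. The groups overlapped in both states. The differences were -0.09 (95% confidence interval -0.34 to 0.16) in naïve and -0.03 (-0.28 to 0.22) in immunized mice. At 1452487_x_at the intervals were 0.21 to 0.80 and 0.13 to 0.71, the second of which overlaps that of Pirb. The Pirb values and those of the shared probe sets are set side by side with no test.

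The Pirb value was also subtracted from that of each shared probe set, array by array, as a description. For 1418809_at the result was -0.93 ± 0.155 in naïve BALB/cJ and 0.94 ± 0.186 in naïve BALB/cByJ spleens, and -0.97 ± 0.0393 and 0.72 ± 0.197 in immunized ones (SD, n = 3 each). For 1420464_s_at it was -0.23 ± 0.0615 and 0.22 ± 0.118 in naïve spleens. There the lowest BALB/cByJ array stood at 0.11 and the highest BALB/cJ array at -0.19. Since the colony contrasts chose the family, nothing is read from this gap. For 1452487_x_at the naïve means were -0.36 ± 0.121 and 0.23 ± 0.224. In immunized spleens the means were -0.08 ± 0.0358 and 0.25 ± 0.153 for 1420464_s_at and -0.19 ± 0.144 and 0.26 ± 0.196 for 1452487_x_at.

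The gp49 probe set 1420394_s_at, which names the chromosome 10 genes, had the opposite sign. The naïve values were 0.43, 0.07 and -0.04 in BALB/cJ and 0.24, -0.09 and -0.45 in BALB/cByJ, which overlapped. Immunized BALB/cJ spleens gave 0.44, 0.03 and 0.33 and immunized BALB/cByJ spleens -0.06, -0.16 and -0.03, which did not. The differences were -0.25 and -0.35 (SE 0.167 each), with intervals of -0.62 to 0.11 and -0.71 to 0.01.

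In limma's fit across all probe sets, with a call at a p under 0.05 after Benjamini-Hochberg adjustment, 1 of the 5 members (1418809_at) was past the threshold between naïve colonies, where 4.39% of all probe sets were. The same 1 of 5 was past it between immunized colonies, where 0.12% of all were. Since these contrasts chose the family, nothing is read from the counts. The naïve share depended on single arrays: leaving out replicate 1 of BALB/cJ gave 0.515%, replicate 2 of BALB/cJ 0.357% and replicate 3 of BALB/cByJ 0.588%. With array weights it was 13.2%. The arrays of the naïve colonies did not overlap for 2 of the 5 members (1418809_at and 1452487_x_at) and for 21.7% of all probe sets. Those of the immunized colonies did not overlap for 4 (all but 1424302_at) and for 15% of all, and nothing is read from these counts either.

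**Figure D2:**
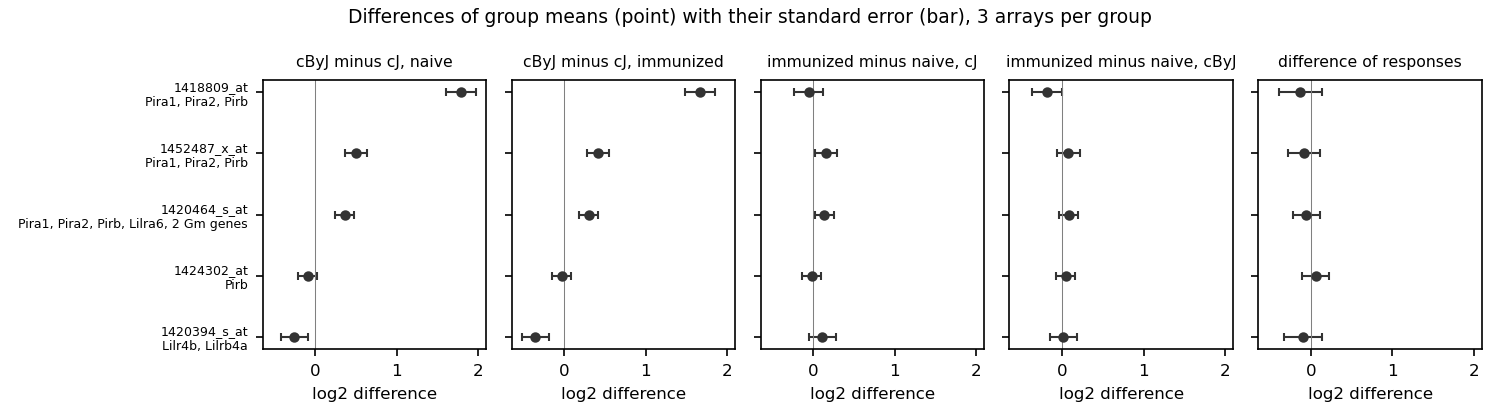
Points are log2 differences of group means for the 5 probe sets (rows), bars are 1 standard error, and panels are the 5 contrasts on a shared horizontal axis. The colony differences of 1418809_at are 1.79 and 1.66, and no immunization difference is further from 0 than -0.18.

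Immunization with PG and DDA was asked of each colony in turn, a contrast on which the family was not chosen. None of the 5 probe sets changed past the test in BALB/cJ, where 0% of all probe sets were called, although 4137 had an unadjusted p under 0.05. None changed in BALB/cByJ either, where 0.0511% were called. In BALB/cJ the difference of 1418809_at, immunized minus naïve, was -0.05 (95% confidence interval -0.45 to 0.34). In BALB/cByJ it was -0.18 (-0.57 to 0.22). Changes within these intervals are not excluded. The intervals are not adjusted for the number of probe sets, and a larger change could also have gone uncalled with 3 arrays per group.

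The other shared probe sets gave small positive values in both colonies. The difference of 1452487_x_at was 0.16 (-0.13 to 0.46) in BALB/cJ and 0.08 (-0.21 to 0.38) in BALB/cByJ, and that of 1420464_s_at 0.14 (-0.11 to 0.39) and 0.08 (-0.17 to 0.34). Pirb at 1424302_at stood at -0.01 (-0.26 to 0.24) and 0.05 (-0.20 to 0.30). The gp49 probe set stood at 0.12 (-0.25 to 0.48) and 0.02 (-0.34 to 0.38). The adjusted p values of the 10 differences lay between 0.761 and 0.99 (limma, Benjamini-Hochberg). Naïve and immunized groups overlapped for each of the 5 probe sets in both colonies. Over all probe sets they did not overlap for 17% in BALB/cJ and 12.1% in BALB/cByJ. Among the cells that carry the receptors, neutrophils had the marker list with the largest median differences on immunization, 0.75 in BALB/cJ and 1.13 in BALB/cByJ. Their list median per array ran from -0.68 to 0.13 in naïve and from 0.41 to 0.84 in immunized BALB/cJ spleens, and from -0.999 to -0.65 and from -0.11 to 1.09 in BALB/cByJ. None of the 13 neutrophil probe sets was called by limma, with 9 in BALB/cJ and 11 in BALB/cByJ at an unadjusted p under 0.05. Of 10 dendritic cell probe sets, 1 was called higher on immunization in BALB/cByJ, beside 0.0511% of all, and the median difference of that list was 0.13. The part of these cells in the values of the family was not tested.

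The colonies' responses were then compared directly. The response of 1418809_at in BALB/cByJ minus that in BALB/cJ was -0.13 (95% confidence interval -0.68 to 0.43, limma adjusted p = 0.943). For the other 4 probe sets it ran from -0.10 to 0.06, with adjusted p values of 0.95 to 0.963. None of the 5 was called, against 0% of all probe sets, of which 3417 had an unadjusted p under 0.05. The labels number the naïve spleens in 1 run and the immunized spleens in another, in which 29, 31 and 33 come before 48, 49 and 50. The sources do not say whether these runs were handled apart, so immunization and run cannot be told apart.

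Within a group the 5 probe sets shared their highest or lowest array in some cases and not in others. Replicate 1 was the highest of the naïve BALB/cJ arrays for 5 of 5 probe sets and the highest of the naïve BALB/cByJ arrays for 4. Replicate 3 of naïve BALB/cByJ and replicate 2 of immunized BALB/cByJ were each the lowest for 5 of 5. The lowest naïve BALB/cJ array was replicate 2 for 2 probe sets and replicate 3 for 3. In immunized BALB/cJ the highest was replicate 1 for 2, replicate 2 for 1 and replicate 3 for 2, while replicate 2 was the lowest for 4. In immunized BALB/cByJ the highest was replicate 1 for 3 and replicate 3 for 2. Probe sets that bind the same transcripts are not independent. A count of 5 of 5 includes the gp49 probe set by definition, and the share over all probe sets was not computed.

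Genes of other tissues set 5 arrays apart. The list of 6 pancreas acinar genes had a median of 2.52 in naïve BALB/cByJ replicate 1. The median of the 4 pigment cell genes was high in naïve BALB/cJ replicates 1 and 2 and immunized BALB/cJ replicate 1, up to 4.42. It was 2.64 in immunized BALB/cByJ replicate 2, where 3 of the 4 genes were above 1. Naïve BALB/cJ replicate 3, with a pigment median of 0.73 and 1 of the 4 genes above 1, was not among the 5. Without these 5 arrays, a choice made after seeing the data, naïve BALB/cJ has 1 array, which is assumed to vary like the other groups. There the colony difference of 1418809_at was 1.69 (SE 0.153) in naïve and 1.72 (SE 0.125) in immunized mice. That of Pirb at 1424302_at was -0.12 (SE 0.119) and 0.06 (SE 0.0975).

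Of the lists of markers for cells that carry these receptors (macrophages and monocytes, B cells, dendritic cells, neutrophils, mast cells), none held a probe set called higher in naïve BALB/cByJ. Over all probe sets 4.39% were called between naïve colonies, in either direction. Of 22 macrophage and monocyte probe sets, 0 were called by limma between naïve colonies (3 had an unadjusted p under 0.05), and their list median per array ran from -0.0031 to 0.21 in naïve BALB/cJ and from -0.41 to 0.26 in naïve BALB/cByJ spleens. Among B cell probe sets 1 of 10 was lower in BALB/cByJ and none higher, among those of marginal zone B cells 2 of 8 were lower, and among dendritic cell probe sets 2 of 10 were lower. Of 13 neutrophil probe sets 0 were called, with 7 at an unadjusted p under 0.05 and a median difference of -0.52. Of 9 mast cell and basophil probe sets 2 were lower. Erythroid markers moved the other way, with 9 of 14 higher in naïve BALB/cByJ. The erythroid list median was -1.26, -1.39 and -0.32 in naïve BALB/cJ and 0.12, 0.35 and 0.63 in naïve BALB/cByJ arrays. In immunized arrays it ran from -0.90 to 0.16 and from -0.11 to 0.49. None of the erythroid, B cell or myeloid markers named here was called between immunized colonies. The part of red cell content in the values of the family was not tested.

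**Figure D3:**
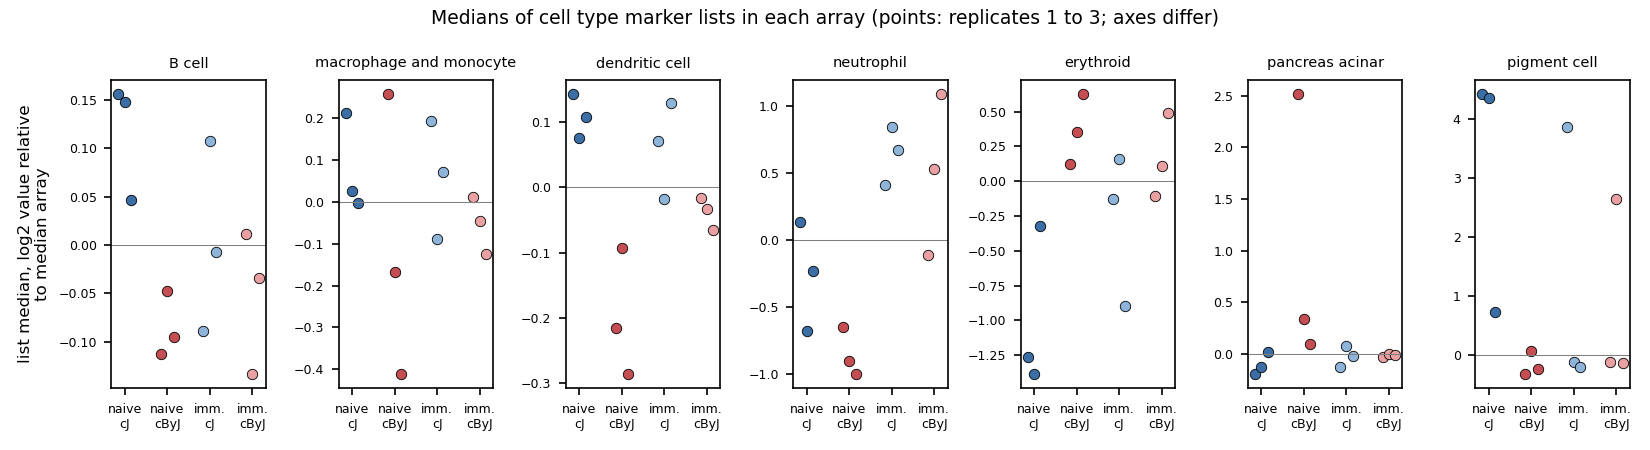
Points are the median log2 value, relative to the median array, of 7 cell type marker lists in each array, by group and with a vertical axis of its own in each panel. The erythroid list separates the naïve colonies (at most -0.32 against at least 0.12), whereas the macrophage and monocyte list overlaps, and the pancreas and pigment lists show the 5 arrays that stand apart.

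The other lists of markers were T cell, natural killer cell, megakaryocyte and platelet, osteoclast and spleen stroma. Between naïve colonies they held 0 of 13, 1 of 6, 0 of 6, 1 of 4 and 0 of 5 calls, and both calls were lower in BALB/cByJ. The pancreas list held 2 of 9, both higher, and the pigment list 0 of 6. The share of all probe sets called in this contrast was 4.39%.

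The genes that flank the cluster on chromosome 7 were listed to see how far the colony difference reached. The reference order gave 16 named genes before and 25 after the cluster with a probe set of their own, 70 probe sets in all. Of these 70, 4 were called between naïve colonies (5.71%, against 4.39% of all probe sets), 3 higher and 1 lower in BALB/cByJ. Between immunized colonies 1 was called (1.43%, against 0.12%). None was called for immunization or for the difference of responses. The median difference of the list was 0.08 in naïve and 0.05 in immunized mice, beside -0.0084 and -0.0067 over all probe sets. The naïve count was 2 without naïve BALB/cJ replicate 1 or naïve BALB/cByJ replicate 3, 1 without naïve BALB/cJ replicate 2 and 0 without the 5 arrays that stood apart. In the same fits the share of all probe sets called fell as well, to 0.515%, 0.588%, 0.357% and 0.0422% in that order. The immunized count was 0 when any of 8 arrays was left out (each naïve BALB/cJ and each immunized BALB/cByJ array, and immunized BALB/cJ replicates 1 and 2). In those fits 0.0888% to 0.109% of all probe sets were called.

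Cox6b2, a testis-enriched subunit of cytochrome c oxidase 20 genes after the cluster, was higher in naïve BALB/cByJ, by 1.32 (SE 0.188, limma adjusted p = 0.00638). Its values ran from -0.97 to -0.80 in naïve BALB/cJ and from 0.19 to 0.84 in naïve BALB/cByJ spleens. In immunized mice its difference was 0.64 (SE 0.188, limma adjusted p = 0.446). Tfpt, which encodes a subunit of the INO80 chromatin remodelling complex, lies 8 genes before the cluster and was called at 2 of its 4 probe sets. At 1438963_s_at it was higher by 0.56 in naïve and by 0.57 in immunized mice (SE 0.0894 each, limma adjusted p = 0.00903 and 0.0278). The values there ran from -0.50 to -0.14 over BALB/cJ and from 0.14 to 0.49 over BALB/cByJ groups.

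At 1448040_at Tfpt was higher by 0.41 in naïve mice (limma adjusted p = 0.0457) and stood at 0.30 in immunized ones (adjusted p = 0.538). The remaining probe sets of Tfpt gave 0.11 and 0.21 in naïve mice. Ndufa3, a subunit of respiratory complex I and the gene next to Tfpt, was not called at any of 3 probe sets. The largest of its differences were 0.25 in naïve (limma adjusted p = 0.0587) and 0.32 in immunized mice (adjusted p = 0.207) at 1452790_x_at. Tfpt and Ndufa3 had been picked by the study on these arrays, so their direction is not independent evidence. Tmem86b, which encodes lysoplasmalogenase, was lower by 0.42 at 1431659_at in naïve mice (limma adjusted p = 0.0289), while its other 2 probe sets gave 0.26 and 0.12.

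The genes closest to the cluster were not called in either state. Over the 15 probe sets of the 6 genes up to 3 places away (Mboat7, Tsen34 and Rps9 before, and Lair1, Ttyh1 and Leng8 after), the colony differences ran from -0.30 to 0.35, and the lowest adjusted p was 0.108 (limma). Lair1, the adjoining gene, encodes an inhibitory collagen receptor of the same superfamily, and its 3 probe sets gave 0.03, 0.31 and 0.19 in naïve mice.

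**Figure D4:**
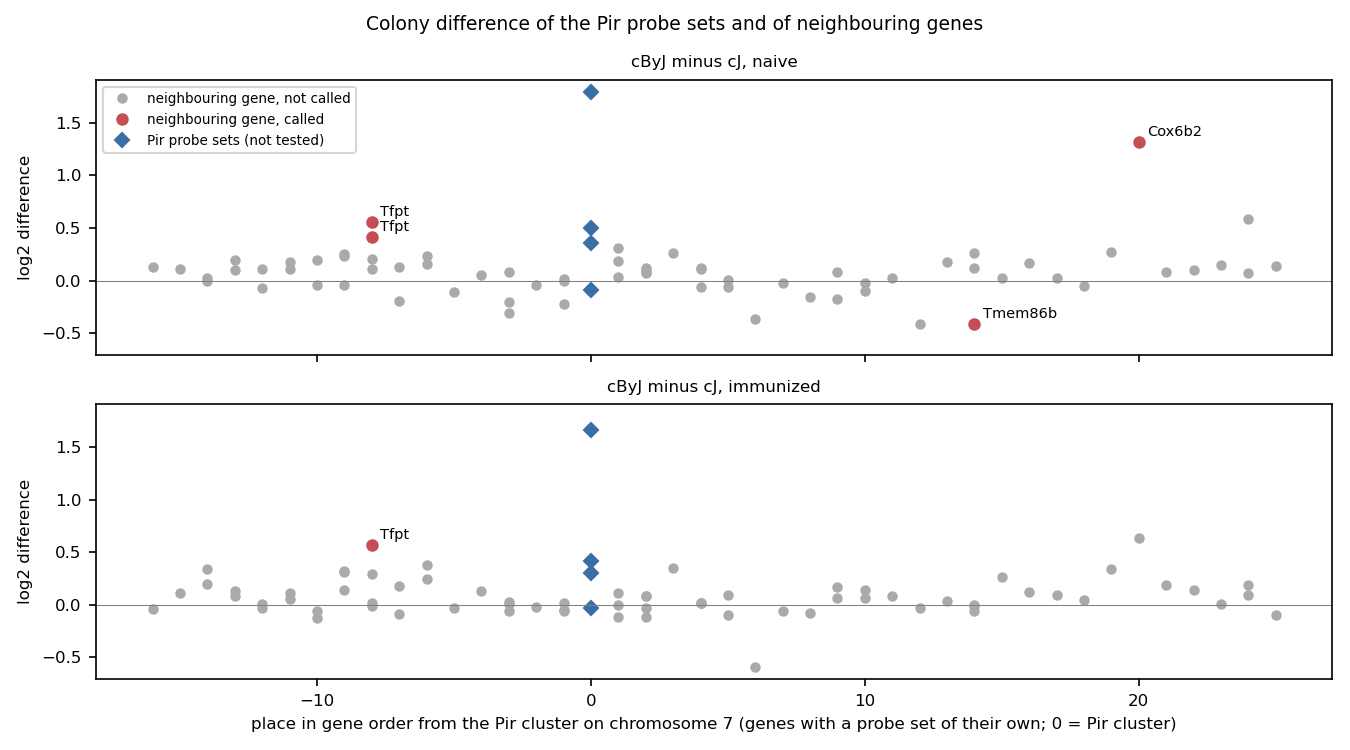
Each point is a probe set, placed by gene order from the Pir cluster on chromosome 7 (horizontal) and by its log2 difference between colonies (vertical), for naïve (top) and immunized (bottom) mice. Diamonds at 0 are the 4 Pir probe sets. They were in the fit, but no call is shown for them, since the colony contrasts chose the family. The called neighbours are Tfpt, Cox6b2 and Tmem86b in naïve and Tfpt in immunized mice.

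The signalling partners of the receptors were listed next. The 10 genes measured had 19 probe sets of their own, and the kinase gene Lyn had none. Between naïve colonies 2 of 19 were called (10.5%, against 4.39% of all probe sets), in opposite directions. Ptpn6, the phosphatase SHP-1 that PIR-B recruits, was lower in BALB/cByJ by 0.32 at 1460188_at, from a mean of 0.12 ± 0.0481 to -0.20 ± 0.0753 (SD, n = 3 each, limma adjusted p = 0.032). Its second probe set gave -0.20 (adjusted p = 0.193). Ptpn11, the phosphatase SHP-2, was higher by 0.38 at 1427699_a_at (limma adjusted p = 0.0403), and its other 2 probe sets gave 0.10 and 0.12. Fcer1g, through which PIR-A signals, had a difference of -0.13 (95% confidence interval -0.34 to 0.08), and Fgr, a Src-family kinase of myeloid cells, -0.10 and -0.13 at its 2 probe sets.

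Between immunized colonies none of the signalling probe sets was called by limma, with 1 at an unadjusted p under 0.05. Ptpn6 at 1460188_at stood at -0.11 and Ptpn11 at 1427699_a_at at -0.07 in that state. The naïve count fell to 0 without naïve BALB/cJ replicate 1 or 2 or naïve BALB/cByJ replicate 3, without the 5 arrays that stood apart, and after quantile normalization. Of all probe sets, at most 0.588% were called in the first 4 of these fits and 2.91% in the last. The count of the list fell to 1 without naïve BALB/cJ replicate 3, naïve BALB/cByJ replicate 1 or 2, immunized BALB/cByJ replicate 1 or immunized BALB/cJ replicate 3. There 5%, 5.48%, 2.85%, 3.79% and 4.29% of all probe sets were called, in that order.

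The list of ligand genes for the family held class I molecules, the myelin-associated inhibitors and the integrin genes Itgav and Itgb3. It was measured at 29 probe sets of 8 of 10 genes. None was called by limma between colonies, although 13 of the 29 had an unadjusted p under 0.05 in naïve and 2 in immunized mice. Leaving out naïve BALB/cByJ replicate 1 gave 3 calls and leaving out naïve BALB/cJ replicate 3 gave 1 in naïve mice. In these fits 5.48% and 5% of all probe sets were called. The median difference was -0.21 in naïve and -0.11 in immunized mice. B2m, the light chain of class I molecules, stood at -0.14 and -0.21 in naïve mice, the probe sets of the heavy chain gene H2-K1 between -0.25 and -0.16, and those of H2-D1 between -0.30 and 0.16. Class I genes are near-identical copies of each other, so their probe sets may share signal.

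Other paired and inhibitory receptors of leukocytes (64 probe sets of 37 of 41 genes) held 1 call between naïve colonies (1.56%, against 4.39% of all probe sets). Siglech, a receptor of plasmacytoid dendritic cells, was higher in BALB/cByJ by 0.52 (SE 0.133, limma adjusted p = 0.0456). It stood at 0.15 in immunized mice (adjusted p = 0.806), where none of the 64 was called and 10 had an unadjusted p under 0.05. The naïve count was 0 when any of 8 arrays was left out (each naïve BALB/cJ and each immunized BALB/cByJ array, and immunized BALB/cJ replicates 2 and 3). It was 2 without naïve BALB/cByJ replicate 1. Of all probe sets, 0.357% to 5% were called in those 8 fits and 5.48% without naïve BALB/cByJ replicate 1. In the signalling, ligand and receptor lists no probe set was called for immunization in either colony or for the difference of responses.

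The genes most like 1418809_at over the 12 arrays were found by the root mean square difference from its values among probe sets that name 1 gene. The 6 closest were Glo1 at 1451240_a_at (0.193), Zhx2 (0.211), Glo1 at 1436070_at (0.258), Neto1 (0.285), Glo1 at 1424108_at (0.303) and 1700097N02Rik (0.307). Glo1 encodes glyoxalase I, which detoxifies methylglyoxal, Zhx2 a transcriptional repressor and Neto1 an auxiliary subunit of glutamate receptors. In naïve mice their colony differences lay between 1.37 and 2.34 and in immunized mice between 1.35 and 2.04. Because all 12 arrays share 1 colony split, a small distance here says that a probe set differs between colonies by a like amount.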

How the data were processed

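RNA from spleen cells of 12 mice was hybridized to whole-genome mouse oligonucleotide arrays. The authors made the deposited log2 values in GeneSpring GX 10.0 by robust multi-array averaging (RMA, version not given in the sources used here) with quantile normalization and median polish. For each probe set, the median of all 12 values was then taken as the baseline and set to 0. The log base is not stated and was read as 2, the base of RMA. This step removes signal levels, so no filter on dim probe sets could be applied. The number of arrays limits the precision.

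Group means of the 4 groups were estimated by limma (version 3.58.1, R 4.3.3, lmFit and plain eBayes) over 45037 probe sets, without 64 controls. P values were adjusted by Benjamini-Hochberg over all of them, and an adjusted p under 0.05 was called. They rest on the spread between animals within groups, pooled over the 4 groups and drawn by eBayes toward a value common to all probe sets. The fit was tested on simulated data with independent normal noise for each probe set and array. Those data hold no effects shared by the probe sets of an array, so they do not show how the fit behaves with such effects. Gene names came from the platform annotation, in which 34945 probe sets name 1 gene, 932 several and 9160 none. Gene order came from the RefSeq table of GRCm38.p6, and promoters from RefSeq on the same assembly. Figures used Python 3.11.15 and matplotlib 3.10.9.

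Named were all members, Fcer1g, Ptpn6, Lyn, Fgr, B2m, H2-K1, H2-D1, Tfpt and Ndufa3, up to 4 called genes of each list and contrast with the smallest p, and the 6 probe sets most like 1418809_at. One further gene of this rule is not reported here. Ptpn11, Lair1 and the other genes up to 3 places from the cluster illustrate their lists. The members, lists and alternatives were chosen with earlier results of these data known. The alternatives were the methods' one-way ANOVA with Student-Newman-Keuls comparisons, quantile normalization, subtraction of array medians, a robust variance, array weights, only the arrays compared, the replicate number or the sample-number run as a block, named probe sets alone, and each array left out. The run block set apart the immunized arrays numbered 48, 49 and 50, and did not separate naïve from immunized arrays. Replicate numbers were not treated as pairs in the main fit. Deviations from the group means correlated between -0.29 and 0.37 over 18 same-numbered pairs and between -0.42 and 0.52 over 36 other pairs.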

Additional observations from a re-analysis of the deposited data

How the results depend on the processing

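The colony difference of 1418809_at, from which no test is read, ranged over the 22 alternatives between 1.56 and 1.96 in naïve mice. In immunized mice it ranged between 1.58 and 1.98, the latter after quantile normalization. No immunization or response difference of a member passed the threshold in any of the 320 alternative values, and 35 changed sign.

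In naïve mice, array weights gave 3 called members, 10 neighbours, 6 signalling, 8 ligand and 5 other receptor probe sets. In the BALB/cJ immunization contrast they gave 1 neighbour, 1 signalling and 1 receptor probe set. Of all probe sets, 13.2% were called with array weights between naïve colonies and 1.45% in the BALB/cJ immunization contrast. The replicate block gave 2 called members, 1 ligand and 0 receptor probe sets in naïve mice, where it called 4.99% of all probe sets. Nothing is read from the counts of members. Only the arrays compared, and likewise the one-way ANOVA, gave 2 neighbours, 0 signalling and 0 receptor probe sets in naïve mice. Of all probe sets, the first of these fits called 2.8% and the ANOVA 0.149%. Quantile normalization gave 0 signalling and 0 receptor probe sets in naïve mice and 1 receptor in immunized mice. The sample-number run as a block gave 0 receptors in naïve mice. Of all probe sets, quantile normalization called 2.91% in naïve and 0.195% in immunized mice, and the run block 4.38% in naïve mice. Between immunized colonies neighbours numbered 0 with the arrays compared or the run block and 2 with the ANOVA. There 0.109%, 0.122% and 0.158% of all probe sets were called, in that order. Without the 5 arrays that stood apart, neighbours numbered 0 in both states, and signalling and receptor probe sets 0 in naïve mice. Leaving out each array gave, in naïve mice, 1 to 5 neighbours, 0 to 2 signalling, 0 to 3 ligand and 0 to 2 receptor probe sets. In immunized mice it gave 0 to 1 neighbour. Over these fits 0.357% to 5.48% of all probe sets were called in naïve and 0.0888% to 0.14% in immunized mice.

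The colony difference of 1424302_at in immunized mice changed sign under 2 alternatives, to 0.036 without immunized BALB/cByJ replicate 2 and 0.059 without the 5 arrays. The other sign changes were in immunization and response differences. For 1418809_at, the BALB/cByJ response became 0.071 after quantile normalization and 0.097 without the 5 arrays, and ran from -0.35 to 0.055 as each array was left out. Its BALB/cJ response became 0.058 with array weights, 0.0062 with the run block and 0.063 without the 5 arrays (-0.15 to 0.11 over the arrays left out). Its response difference became 0.35 after quantile normalization and 0.034 without the 5 arrays (-0.30 to 0.11). For 1420394_s_at, the BALB/cByJ response ran from -0.16 to 0.19, and the response difference from -0.27 to 0.073, with 0.0021 without the 5 arrays. For 1420464_s_at they ran from -0.011 to 0.17 and from -0.15 to 0.034, with 0.017 after quantile normalization. For 1424302_at, the BALB/cByJ response ran from -0.036 to 0.18, the BALB/cJ response from -0.060 to 0.063 (0.017 with array weights, 0.014 after quantile normalization, 0.065 without the 5 arrays), and the response difference from -0.025 to 0.20. For 1452487_x_at, the BALB/cByJ response ran from -0.029 to 0.20, and the response difference from -0.22 to 0.032, with 0.00015 after quantile normalization. The cause of these shifts was not tested. A filter on dim probe sets and a trended variance could not be run, since the values hold no signal level.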
